A study of Mus musculus with 31 samples.

Results

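The transcripts described here are those of 7 genes that move glutamate or convert it in the brain. They are the vesicular transporters Slc17a6 and Slc17a7, the plasma membrane transporters Slc1a1, Slc1a2 and Slc1a3, and the enzymes Glul and Glud1. They were taken by name, as 7 of 19902 genes with a symbol on the array, RIKEN clone names left out, and each is represented by the probe that was brightest over all arrays. The measurement is a co-hybridization of 2 RNA pools on 1 microarray, 1 labelled with the dye Cy3 and the other with Cy5, and the value is the log2 ratio of the Cy5 over the Cy3 signal of a probe.

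All animals were 5-day-old NMRI mice, and each pool was made from forebrain hemispheres of 6 animals, 3 males and 3 females according to the labels. In Experiment 1, mice given MgSO4 at 600 mg/kg (Cy5) were set against mice given PBS (Cy3) from the same litters, and brains were collected 3 h (4 arrays), 6 h (7 arrays), 12 h (4 arrays) or 24 h (4 arrays) after injection; these are the Mg arrays. In Experiment 3, brains collected after hypoxia-ischemia (Cy5) were set against control brains (Cy3), with 3 arrays each at 3 h and 12 h. These are the HI arrays. Their titles call the reference naive mice and tag the injured animals PBS. By these titles PBS and injury cannot be told apart in the HI ratio. In Experiment 2, brains of mice given MgSO4 at 600 mg/kg before hypoxia-ischemia were hybridized, again with 3 arrays per time, and these are the MgHI arrays. Hypoxia-ischemia was made by the Rice and Vannucci procedure, a permanent ligature of the right carotid followed by low oxygen, in which part of the brain is deprived of blood and oxygen together.

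The descriptions of these groups disagree in places. The labels give the injection as subcutaneous and the controls as PBS-treated, whereas the study's methods give an intraperitoneal injection and untreated controls. The Cy5 treatment label of the HI arrays names MgSO4, against their title and source, and they are taken here as hypoxia-ischemia without MgSO4. For the MgHI arrays, the titles name MgSO4-treated animals without injury as the Cy3 reference, while the design text puts saline-treated injured brains there. That leaves the reference of the ratio, and what a value above 0 stands for, unsettled. Its values are given by channel, and means with the sign turned are printed beside them. No dye was swapped anywhere in the series, so a preference of a probe for 1 dye is part of every ratio. The tissue is named forebrain in 1 label and a brain hemisphere, without olfactory bulb and cut in front of the colliculus, in another, and the methods specify the ipsilateral side. Pooled hemispheres cannot tell fewer cells of a type from less RNA per cell.

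Glutamate is the main excitatory transmitter of the forebrain. Neurons load it into synaptic vesicles with the vesicular transporters, and after release it is cleared from the extracellular space by sodium-driven transporters of the Slc1a family, most of all those of astrocytes. Astrocytes turn it into glutamine with glutamine synthetase or burn it through glutamate dehydrogenase, and the glutamine goes back to neurons. In the newborn brain this system is still being built, and loss of glutamate clearance during lack of oxygen is a recognised route to injury.

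Each of the 7 brightest probes was well above background in both channels on all 31 arrays, so none was lost to the filter on dim probes. Slc1a2 had 3 probes and Glud1 had 2, and each of the others had 1. Over the 31 arrays, between 45.2% and 69.7% of probes were well above background in Cy3 and between 54.4% and 70.2% in Cy5. The arrays lay on 9 slides; those of 6, 12 and 24 h after MgSO4 shared slides 1 to 4, those of 3 h lay on slides 5 and 6, and HI and MgHI arrays shared slides 7 to 9. The forebrain markers Emx1 and Lhx2 were well above background in Cy3 on 31 arrays and Emx2 on 25. Of the hindbrain markers, En1, Hoxa2, Hoxb3 and Hoxb5 were so on 0, 1, 3 and 2 arrays, but En2 on 31.

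None of the 7 genes was called in any of the 22 comparisons made, a call being an adjusted p under 0.05 together with a fold change of at least 1.5. The ratio was tested against 0 within each group with limma and Benjamini-Hochberg adjustment over all probes. These results take Cy5 over Cy3 as it stands. With the direction of the 6 h ratio turned, Slc17a6 and Slc1a2 were called for Mg 12 h against 6 h. That alternative was chosen after seeing the data and goes against the dye orientation in the labels. By the same rule 0% of probes were called at Mg 3 h, 0.0283% at Mg 6 h, 0% at Mg 12 h and 0.00554% at Mg 24 h. In the injury groups 3.8% were called at HI 3 h, 0.0106% at HI 12 h, 7.61% at MgHI 3 h and 0% at MgHI 12 h.

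At an unadjusted p under 0.05, 2 of the 7 genes passed at Mg 3 h, where 9.03% of all probes did, 1 at Mg 6 h (13.2%), 2 at Mg 12 h (15.7%) and 1 at Mg 24 h (11.1%). In the injury groups 4 of 7 passed at HI 3 h against 36.1% of all probes, 3 at HI 12 h against 27.5%, 1 at MgHI 3 h against 30.2% and 2 at MgHI 12 h against 26.6%. The methods' t-test with the same adjustment called none of the 7 in any of the 8 groups. At its unadjusted p together with the fold threshold it called 1, Slc1a2 at HI 12 h. The same rule called 935 probes over the array in that group, where 18948 were tested.

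**Figure D1:**
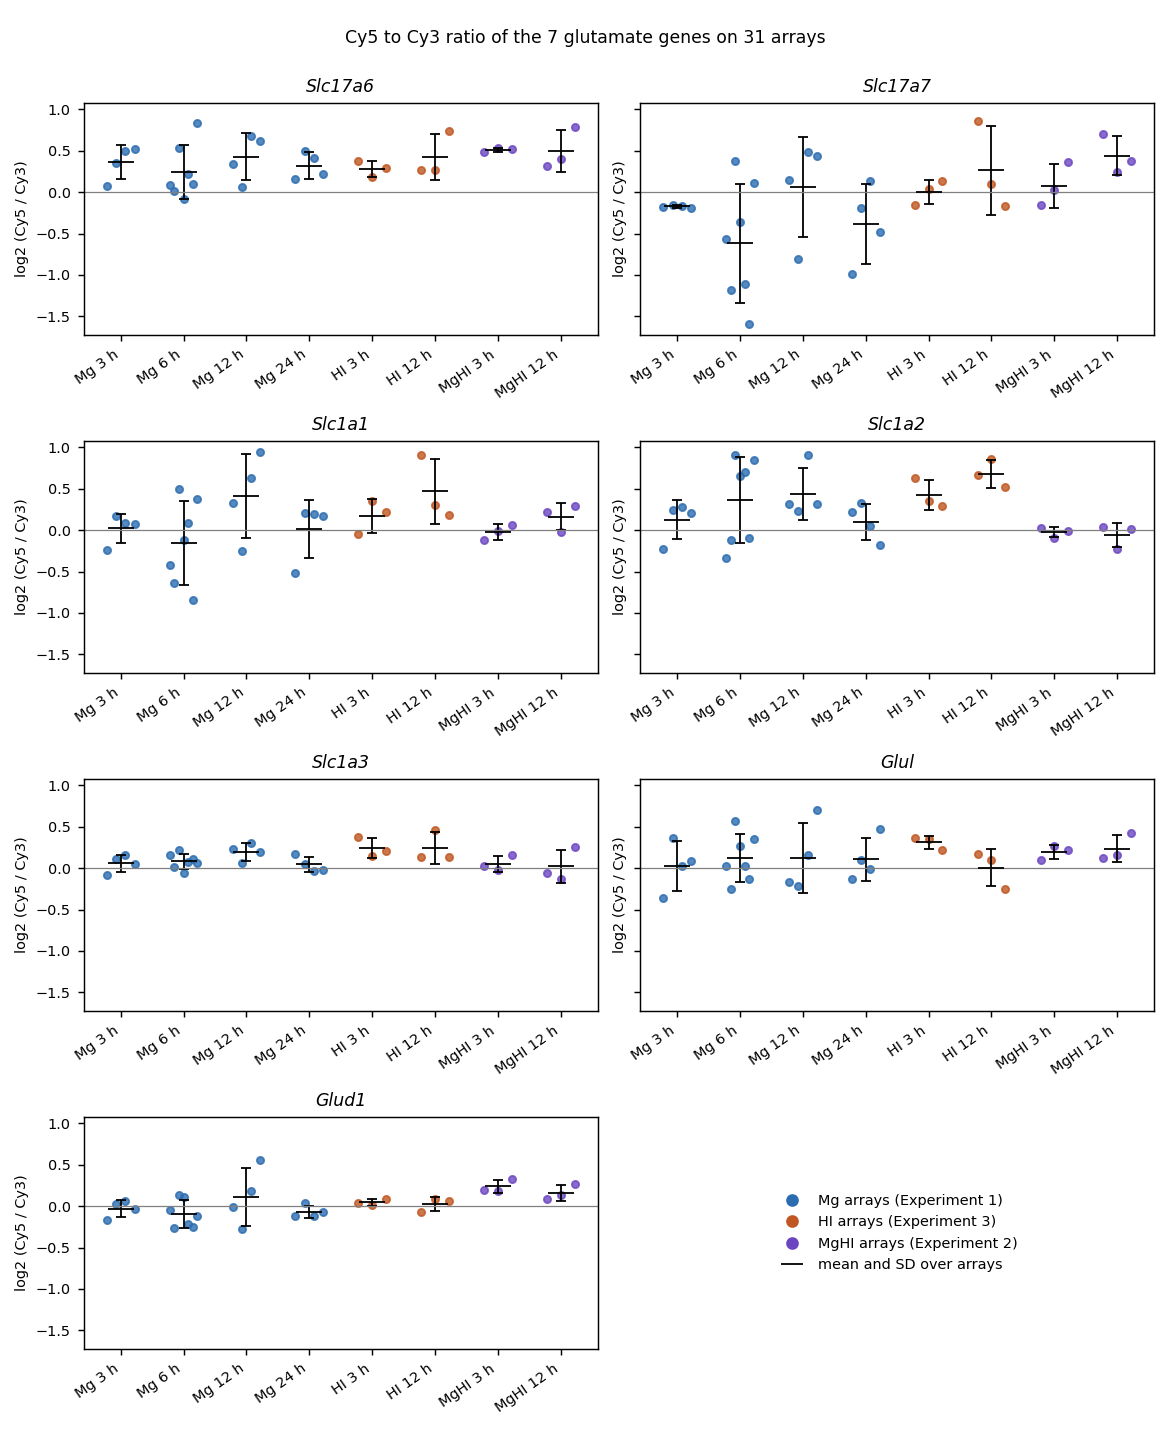
Log2 ratio of Cy5 over Cy3 for each of the 7 genes (panels) on the arrays of the 8 groups (horizontal axis), with 1 point per array and the mean and SD of each group in black. Slc17a7 spans from -1.60 to 0.86 and Slc1a3 only from -0.13 to 0.46, and Slc17a6 as Cy5 over Cy3 lies above 0 on 30 of 31 arrays.

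The median log2 ratio of the 7 genes was 0.03 at Mg 3 h, 0.08 at Mg 6 h, 0.20 at Mg 12 h and 0.04 at Mg 24 h, where the median over all genes was -0.01, -0.00, 0.02 and -0.01. It was 0.25 at HI 3 h and 0.26 at HI 12 h, against -0.03 and 0.00 over all genes. On the MgHI arrays it was 0.08 at 3 h and 0.16 at 12 h, against -0.04 and -0.01. With the sign turned the medians of the 7 genes are -0.08 at Mg 6 h, -0.08 at MgHI 3 h and -0.16 at MgHI 12 h. All 7 group means were above 0 at Mg 12 h, HI 3 h and HI 12 h, where the medians over all genes were 0.02, -0.03 and 0.00. The 7 ratios are not independent of each other, since they share arrays and dye orientation.

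Slc17a6 codes for VGLUT2, the vesicular glutamate transporter that predominates in the newborn forebrain and in the thalamus. Its log2 ratios were 0.08, 0.35, 0.50 and 0.52 at Mg 3 h. At Mg 6 h they ran from -0.08 through a median of 0.10 to 0.84. All but 1 of these 11 arrays lay above 0.

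At Mg 12 h the Slc17a6 ratios were 0.35, 0.06, 0.68 and 0.62, and at Mg 24 h they were 0.16, 0.50, 0.41 and 0.22. On the HI arrays they were 0.37, 0.18 and 0.29 at 3 h and 0.27, 0.27 and 0.74 at 12 h. In the MgHI groups they were 0.48, 0.53 and 0.52 at 3 h and 0.31, 0.40 and 0.79 at 12 h. As Cy5 over Cy3, 1 of the 31 arrays lay below 0, but the direction at 6 h and the reference in the MgHI groups are not settled.

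The Slc17a6 means were 0.36 ± 0.20 (SD, n = 4, adjusted p 0.477) at Mg 3 h, 0.24 ± 0.33 (n = 7, 0.429) at Mg 6 h, 0.43 ± 0.28 (n = 4, 0.304) at Mg 12 h and 0.32 ± 0.16 (n = 4, 0.375) at Mg 24 h. They were 0.28 ± 0.10 (n = 3, adjusted p 0.0562) at HI 3 h and 0.43 ± 0.28 (n = 3, 0.149) at HI 12 h. The mean on MgHI arrays at 3 h was 0.51 ± 0.03 (n = 3), with an adjusted p of 0.0277 and a fold of 1.43 that did not reach the threshold of 1.5, and at 12 h it was 0.50 ± 0.25 (n = 3, adjusted p 0.104). With the direction turned the MgHI means are -0.51 and -0.50 and the mean at Mg 6 h is -0.24.

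A ratio of Cy5 over Cy3 above 0 on at least 30 of 31 arrays was found for 131 of 18206 probes, or 0.72%. This tally is by channel: with the 13 arrays of Mg 6 h and MgHI turned, Slc17a6 lay above 0 on 19 of 31 arrays, and 0 probes did so on at least 30. The same dye carried the treated or injured pool on every Mg and HI array, so treatment and dye cannot be told apart for Slc17a6. The difference between HI and Mg ratios, in which a constant dye preference drops out, was -0.08 at 3 h (95% confidence interval -0.38 to 0.22) and -0.00 at 12 h (-0.47 to 0.47).

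Slc17a7 codes for VGLUT1, the vesicular transporter that cortical and hippocampal excitatory neurons take up as they mature. It had the most variable ratio of the 7 genes, with an SD over the 31 arrays of 0.56, larger than that of 93.8% of 11756 genes (0.57 and 93.7% with the Mg 6 h and MgHI ratios turned). Its Cy3 signal ran from 45.1 to 751 over the arrays, against 1580 to 10300 for Slc1a3. The part of signal strength in the spread was not tested. The Slc17a7 ratios at Mg 3 h were -0.18, -0.15, -0.17 and -0.19, below 0 on all 4 arrays and within a narrow range. The mean there was -0.17 ± 0.02 (n = 4), a fold of 1.13 with an adjusted p of 0.549.

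At Mg 6 h the Slc17a7 ratio ran from -1.60 through a median of -0.56 to 0.38, with 5 of 7 arrays below 0. Its mean was -0.62 ± 0.72 (n = 7), a fold of 1.54 with an adjusted p of 0.318; with the sign turned it is 0.62. The ratios were 0.14, -0.81, 0.49 and 0.44 at Mg 12 h (mean 0.06 ± 0.60, n = 4, adjusted p 0.89) and -1.0, -0.19, 0.14 and -0.49 at Mg 24 h (-0.38 ± 0.48, n = 4, 0.479). Single arrays of a group thus lay on both sides of 0 at each of these 3 times.

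The 7 arrays at 6 h did not run alike over all probes. Of their 21 pairs, 5 correlated below -0.3, all between 1 of the 2 arrays on slide 4 and an array on slide 2 or 3; replicates 2 and 3 had the lowest correlation, -0.42, and replicates 2 and 6 the highest, 0.86. The labels give all these arrays the same dye orientation, and the arrays themselves do not settle the direction of the 6 h ratio. Turning all 7 together leaves the split between slide 4 and the others unchanged, so turned values do not test it. Means of the 7 genes at 6 h are given with the sign turned too.

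Slc17a7 followed this split. On slide 4 its 6 h ratios were 0.38 and 0.11, and on the other slides they lay between -1.60 and -0.37. Slc17a6, Slc1a1, Slc1a2 and Glul also had both slide 4 arrays above all 5 others, while Slc1a3 and Glud1 overlapped. Over all probes, 28.8% had both slide 4 arrays above the 5 others and 18.2% had both below.

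Within slides, the Slc17a7 mean at 6 h was -0.84 (n = 2) on slide 2, -1.39 (n = 2) on slide 3 and 0.24 (n = 2) on slide 4, and the 1 array on slide 1 gave -0.37. Without slide 4, an alternative chosen after seeing the data, its mean was -0.96 (n = 5, adjusted p 0.0169) and it was called, but so were 1534 probes against 5 with all arrays. With slide as a random block 0 probes were called.

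Marker lists for neurons moved along with the same arrays. The median ratio of 8 excitatory neuron markers was 0.48 and 0.52 on the slide 4 arrays at 6 h and between -0.72 and 0.06 on the others, and that of 7 general neuronal markers 0.16 to 0.39 against -0.56 to -0.04. It was 0.64 to 0.70 against -0.75 to -0.18 for 7 markers of the oligodendrocyte lineage, and 0.18 to 0.21 against -0.39 to 0.04 for 11 astrocyte markers. Their part in the ratios of Slc17a7 was not tested.

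**Figure D2:**
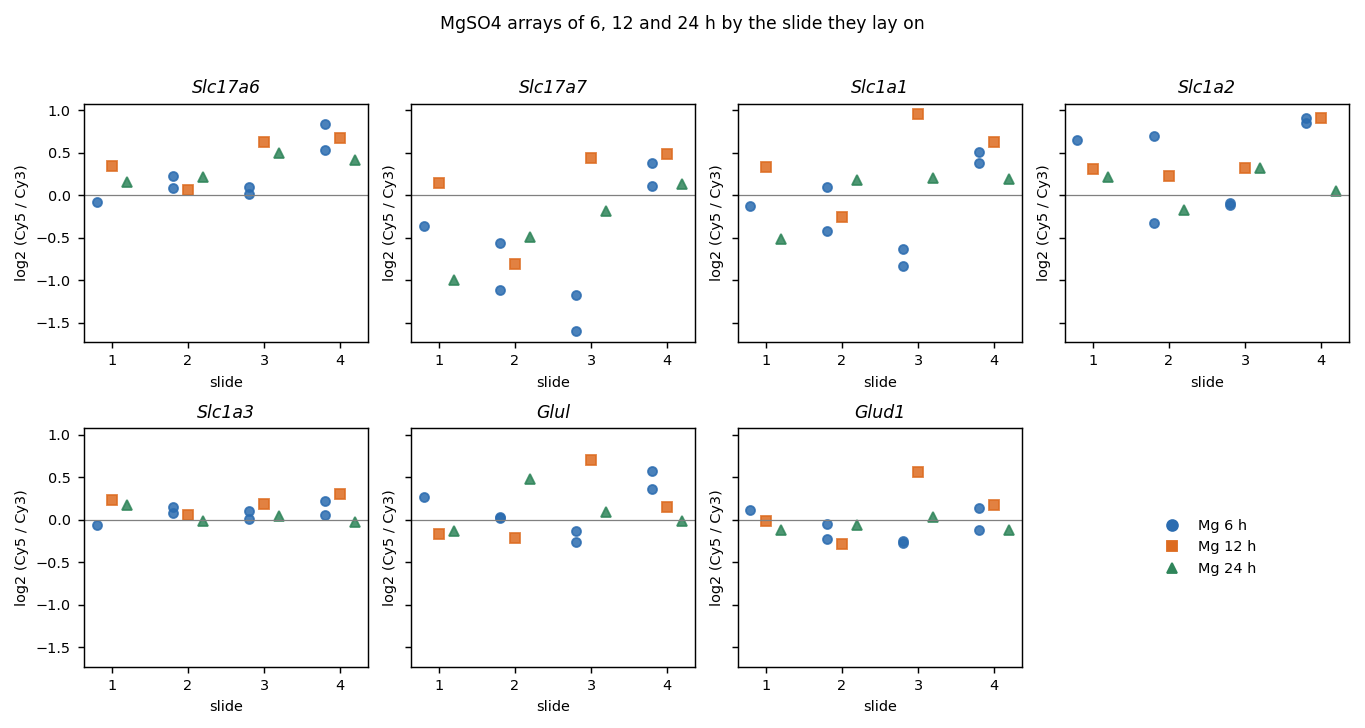
Log2 ratio of Cy5 over Cy3 for each gene (panels) on the Mg arrays of 6 h (circles), 12 h (squares) and 24 h (triangles), placed by the slide they lay on. The 2 arrays of 6 h on slide 4 lie above the 5 others for Slc17a6, Slc17a7, Slc1a1, Slc1a2 and Glul.

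On the HI arrays the Slc17a7 ratios were -0.15, 0.04 and 0.13 at 3 h (mean 0.01 ± 0.15, n = 3, adjusted p 0.96) and 0.86, 0.10 and -0.17 at 12 h (0.26 ± 0.53, n = 3, 0.465). On the MgHI arrays they were -0.15, 0.03 and 0.37 at 3 h (0.08 ± 0.27, n = 3, 0.722) and 0.70, 0.25 and 0.38 at 12 h (0.44 ± 0.23, n = 3, 0.118). With the sign turned the MgHI means are -0.08 and -0.44. The HI groups straddled 0 at both times.

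Slc1a1 codes for the neuronal glutamate transporter EAAC1, which sits on cell bodies and dendrites and also carries cysteine. Its ratios at Mg 3 h were -0.24, 0.17, 0.09 and 0.07 (mean 0.02 ± 0.18, n = 4, adjusted p 0.959). At Mg 6 h they ran from -0.84 through a median of -0.12 to 0.50 (mean -0.15 ± 0.51, n = 7, 0.74; 0.15 with the sign turned). Neither group lay on 1 side of 0.

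At Mg 12 h the Slc1a1 ratios were 0.33, -0.25, 0.63 and 0.95 (mean 0.41 ± 0.51, n = 4, adjusted p 0.345) and at Mg 24 h they were -0.51, 0.21, 0.19 and 0.18 (0.02 ± 0.35, n = 4, 0.976). The step from 6 h to 12 h was the only one between MgSO4 times that passed an unadjusted p of 0.05 for any of the 7 genes. It was 0.56 (95% confidence interval 0.03 to 1.1, adjusted p 0.352), where 14.1% of all probes passed the unadjusted threshold. With the 6 h ratio turned it was 0.26 (-0.27 to 0.80, adjusted p 0.579) and did not pass, so the step rests on the direction taken at 6 h.

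On the HI arrays the Slc1a1 ratios were -0.05, 0.36 and 0.22 at 3 h (mean 0.17 ± 0.21, n = 3, adjusted p 0.254) and 0.91, 0.31 and 0.19 at 12 h (0.47 ± 0.39, n = 3, 0.17). The 12 h arrays were all above 0, with replicate 1 far above the others. Neuronal marker lists on the same arrays, not all of them above 0 throughout, are given with Slc1a2. Among the MgHI arrays they were -0.12, -0.01 and 0.06 at 3 h (-0.02 ± 0.09, n = 3, 0.905; 0.02 with the sign turned) and 0.22, -0.02 and 0.30 at 12 h (0.16 ± 0.17, n = 3, 0.386; -0.16 with the sign turned).

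Slc17a7 and Slc1a1 had the most similar ratios of any 2 of the 7 genes, with a Pearson correlation of 0.82 (Spearman 0.77) over the 31 arrays, which share slides (0.73 and 0.72 with the Mg 6 h and MgHI ratios turned). The stretches around their transcription starts are shown for that reason, from RefSeq on build GRCm38.p6, each a window across the start with most of it upstream. Slc17a7 lies on the plus strand at chr7:45163671-45163970 and Slc1a1 on the plus strand at chr19:28834885-28835184. Capitals mark the GC box, GGGCGG read on either strand.
Slc17a7: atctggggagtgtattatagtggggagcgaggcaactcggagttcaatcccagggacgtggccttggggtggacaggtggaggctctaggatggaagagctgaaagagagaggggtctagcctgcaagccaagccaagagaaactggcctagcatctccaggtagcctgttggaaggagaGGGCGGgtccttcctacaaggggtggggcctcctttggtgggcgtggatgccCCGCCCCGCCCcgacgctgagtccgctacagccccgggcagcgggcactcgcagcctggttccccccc
Slc1a1: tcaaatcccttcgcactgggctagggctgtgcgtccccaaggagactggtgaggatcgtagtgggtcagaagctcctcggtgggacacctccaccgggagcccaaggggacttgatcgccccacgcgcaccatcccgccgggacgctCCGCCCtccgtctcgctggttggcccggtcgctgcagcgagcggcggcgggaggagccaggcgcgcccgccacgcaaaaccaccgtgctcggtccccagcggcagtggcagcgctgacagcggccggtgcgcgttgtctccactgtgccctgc

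The Slc17a7 stretch held the GC box 3 times and the Slc1a1 stretch 1 time. Most of the other genes held it as well: Glud1 3 times, Slc1a3 and Glul 1 time each and Slc1a2 0 times. Slc17a6 held it 1 time in 1 window and 0 times in another. Of 32851 mouse promoters of the same length, 35.7% held at least 1. The E-box CACGTG, present in 7.15% of promoters, and the cAMP response element TGACGTCA, present in 1.79%, were searched on both strands. Their letters were found in neither the Slc17a7 nor the Slc1a1 stretch. The last pair of GC boxes in the Slc17a7 stretch share a base, so they run together in capitals. A match is a description of the letters only.

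Slc1a2 codes for GLT1, the astrocyte transporter that clears most of the glutamate in the mature forebrain and whose expression climbs during postnatal life. Its ratios at HI 3 h were 0.63, 0.36 and 0.29, all above 0. The mean was 0.42 ± 0.18 (n = 3, 95% confidence interval 0.20 to 0.65), a fold of 1.34 with an adjusted p of 0.0436. The adjusted p passed 0.05 but the fold did not reach 1.5, and 14.3% of all probes had an adjusted p under 0.05 in this group.

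At HI 12 h the Slc1a2 ratios were 0.67, 0.86 and 0.52, again all above 0. The mean of 0.68 ± 0.17 (n = 3, confidence interval 0.36 to 1.00), a fold of 1.61, was the largest of any of the 7 genes in any group by their brightest probes, and its adjusted p was 0.08. Without replicate 3 it was 0.76 (n = 2, adjusted p 0.0127) and was called, as was Slc1a1 at 0.61 (adjusted p 0.0431), and the probes called over the array went from 2 to 3335. Without replicate 1 or 2, 771 and 18 probes were called and none of the 7 genes.

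A ratio above 0 on every array was found for 25.3% of all probes at HI 3 h and for 24.6% at HI 12 h. Slc17a6, Slc1a2 and Slc1a3 had it at both times, Glul and Glud1 at HI 3 h, and Slc1a1 at HI 12 h. That is 5 of 7 genes at 3 h and 4 of 7 at 12 h. On the MgHI arrays the same held for 26.5% of all probes at 3 h and 28.3% at 12 h, with Slc17a6, Glul and Glud1 at 3 h and these 3 and Slc17a7 at 12 h. With the sign turned the shares are 24.8% and 23.5%, and 0 of the 7 genes lay above 0 on every MgHI array at either time.

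After MgSO4 alone the Slc1a2 ratios were -0.22, 0.24, 0.28 and 0.21 at 3 h (mean 0.13 ± 0.23, n = 4, adjusted p 0.738). At 6 h they ran from -0.33 through a median of 0.65 to 0.91 (0.37 ± 0.52, n = 7, 0.416; -0.37 with the sign turned). They were 0.31, 0.23, 0.91 and 0.32 at 12 h (0.44 ± 0.31, n = 4, 0.304) and 0.22, 0.32, 0.05 and -0.17 at 24 h (0.10 ± 0.22, n = 4, 0.739). Only the 12 h arrays were all above 0.

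The HI ratio of Slc1a2 exceeded the Mg ratio by 0.30 at 3 h (95% confidence interval -0.05 to 0.65, adjusted p 0.375) and by 0.24 at 12 h (-0.22 to 0.70, 0.675). Both intervals included 0. The step from 3 h to 12 h after HI was 0.26 (-0.09 to 0.61, adjusted p 0.397).

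For MgHI the Slc1a2 ratios were 0.03, -0.09 and -0.01 at 3 h (mean -0.03 ± 0.06, n = 3, adjusted p 0.884) and 0.04, -0.23 and 0.01 at 12 h (-0.06 ± 0.15, n = 3, 0.757). With the sign turned these means are 0.03 and 0.06. The intervals of this probe ran from -0.26 to 0.21 in the 3 h group and from -0.33 to 0.21 in the 12 h group.

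The other 2 Slc1a2 probes, which the array assigns to another RefSeq transcript and which were dimmer (well above background in Cy3 on 24 and 22 arrays), were not called either. Their means were 0.36 and 0.49 at HI 3 h and 0.37 and 0.58 at HI 12 h, so the means of all 3 probes lay above 0 there, although 1 of 3 arrays at HI 12 h was below 0 on the first. After MgSO4 alone they were 1.11 ± 0.85 and 0.53 ± 0.23 at 12 h (n = 4, above 0 on 4 of 4 arrays, adjusted p 0.304 for both), so by the first of these probes the mean at Mg 12 h exceeded that at HI 12 h. As Cy5 over Cy3, they lay at the other MgSO4 times between 0.08 and 0.41. On the MgHI arrays they gave 0.37 and 0.20 at 3 h and 0.28 and -0.26 at 12 h, and thus did not share 1 sign. The 0.37 was above 0 on 3 of 3 arrays (95% confidence interval 0.07 to 0.67, adjusted p 0.109). Turned, the MgHI means are -0.37, -0.20, -0.28 and 0.26.

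Markers of astrocytes were not all above 0 after injury. Of 11 astrocyte markers 5 had a mean ratio above 0 at HI 3 h and 7 at HI 12 h, with medians of -0.13 and 0.03, and 0 were called at either time. All 11 were well above background on every HI array, and their summed log2 level in Cy5 lay between 7.77 and 8.03 at HI 3 h and between 8.04 and 8.09 at HI 12 h, against 8.04 to 8.10 and 8.19 to 8.32 in Cy3. The median of 7 oligodendrocyte lineage markers was 0.51 at HI 12 h, with 6 of 7 above 0, and their summed level was 3.50 to 3.70 in Cy5 and 3.22 to 3.48 in Cy3. Some other lists had medians above 0 on all 3 arrays of HI 12 h too. They were 0.45, 0.35 and 0.17 for 8 excitatory neuron markers and 0.34, 0.38 and 0.28 for 9 inhibitory ones. Those of 6 endothelial markers were 0.20, 0.37 and 0.19. For 7 general neuronal markers they were 0.19, 0.17 and -0.20, so not all above 0. At HI 3 h the inhibitory medians were 0.08, 0.17 and 0.23. The part of these cells in the ratios of Slc1a2, Slc1a1 and Slc17a6 was not tested.

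Slc1a3 codes for GLAST, the transporter of radial glia and astrocytes that predominates before and around birth. It was the steadiest of the 7 genes, with an SD over the 31 arrays of 0.14; only 2.74% of genes had a smaller one (0.17 and 4.99% with the Mg 6 h and MgHI ratios turned). Its ratios at Mg 3 h were -0.08, 0.11, 0.16 and 0.05 (mean 0.06 ± 0.10, n = 4, adjusted p 0.835). At Mg 6 h they ran from -0.06 through a median of 0.08 to 0.22 (0.08 ± 0.09, n = 7, 0.665; -0.08 with the sign turned).

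At Mg 12 h the Slc1a3 ratios were 0.23, 0.06, 0.31 and 0.19 (mean 0.20 ± 0.11, n = 4, adjusted p 0.371) and at Mg 24 h they were 0.18, 0.05, -0.03 and -0.02 (0.04 ± 0.10, n = 4, 0.866). On the HI arrays they were 0.38, 0.15 and 0.21 at 3 h (0.25 ± 0.12, n = 3, adjusted p 0.083) and 0.13, 0.46 and 0.13 at 12 h (0.24 ± 0.19, n = 3, 0.282). The 6 HI arrays were all above 0, by at most 0.46. In the MgHI groups they were 0.02, -0.02 and 0.16 at 3 h (0.05 ± 0.10, n = 3, 0.758; -0.05 with the sign turned) and -0.06, -0.13 and 0.25 at 12 h (0.02 ± 0.20, n = 3, 0.927; -0.02 with the sign turned).

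Glul codes for glutamine synthetase, the astrocyte enzyme that binds ammonia to glutamate. Its ratios at HI 3 h were 0.37, 0.35 and 0.22, all above 0 and close together. The mean was 0.31 ± 0.08 (n = 3, 95% confidence interval 0.14 to 0.48), a fold of 1.24 with an adjusted p of 0.0442, again past the p threshold and short of the fold threshold. At HI 12 h the ratios were 0.17, 0.09 and -0.25, with a mean of 0.00 ± 0.22 (n = 3, adjusted p 0.988).

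The change in Glul from HI 3 h to HI 12 h was -0.31 (95% confidence interval -0.65 to 0.03), with an adjusted p of 0.322. After MgSO4 alone the Glul ratios were -0.36, 0.37, 0.03 and 0.08 at 3 h (mean 0.03 ± 0.30, n = 4, 0.96), and at 6 h they ran from -0.26 through a median of 0.03 to 0.57 (0.12 ± 0.29, n = 7, 0.663; -0.12 with the sign turned).

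At Mg 12 h the Glul ratios were -0.16, -0.22, 0.15 and 0.71 (mean 0.12 ± 0.42, n = 4, adjusted p 0.718) and at Mg 24 h -0.14, 0.10, -0.01 and 0.48 (0.11 ± 0.27, n = 4, 0.758). The HI ratio exceeded the Mg ratio by 0.28 at 3 h (confidence interval -0.09 to 0.66, adjusted p 0.436). On the MgHI arrays the ratios were 0.10, 0.27 and 0.22 at 3 h (0.19 ± 0.09, n = 3, 0.246; -0.19 with the sign turned) and 0.13, 0.16 and 0.42 at 12 h (0.23 ± 0.16, n = 3, 0.241; -0.23 with the sign turned).

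Glud1 codes for mitochondrial glutamate dehydrogenase, which turns glutamate into the citric acid cycle intermediate alpha-ketoglutarate. Its ratios at Mg 3 h were -0.17, 0.03, 0.06 and -0.03 (mean -0.03 ± 0.10, n = 4, adjusted p 0.929). At Mg 6 h they ran from -0.27 through a median of -0.12 to 0.14 (-0.09 ± 0.17, n = 7, 0.671; 0.09 with the sign turned). These arrays lay on both sides of 0.

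At Mg 12 h the Glud1 ratios were -0.01, -0.28, 0.18 and 0.56 (mean 0.11 ± 0.35, n = 4, adjusted p 0.697) and at Mg 24 h -0.12, 0.04, -0.11 and -0.06 (-0.07 ± 0.07, n = 4, 0.788). On the HI arrays they were 0.04, 0.01 and 0.09 at 3 h (0.05 ± 0.04, n = 3, 0.614) and -0.07, 0.08 and 0.07 at 12 h (0.02 ± 0.09, n = 3, 0.905). Both injury means of Glud1 lay close to 0, with confidence intervals of -0.11 to 0.20 and -0.27 to 0.32.

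Among the MgHI arrays the Glud1 ratios were 0.20, 0.19 and 0.33 at 3 h (mean 0.24 ± 0.08, n = 3, adjusted p 0.17; -0.24 with the sign turned) and 0.09, 0.13 and 0.27 at 12 h (0.16 ± 0.10, n = 3, 0.34; -0.16 with the sign turned). All 6 were above 0 as Cy5 over Cy3. The second Glud1 probe had group means of Cy5 over Cy3 between 0.11 and 0.29 in all 8 groups, including those where the brightest probe was below 0.

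Differences between times showed no call among the 7 genes. Over all probes, 0% were called for Mg 6 h against 3 h, 0% for 12 h against 3 h, 0% for 24 h against 3 h, 0.00576% for 12 h against 6 h, 0% for 24 h against 6 h and 0% for 24 h against 12 h. The unadjusted shares were 4.2%, 3.06%, 0.903%, 14.1%, 3.16% and 1.21% in that order, and of the 7 genes 0, 0, 0, 1, 0 and 0 passed. With the 6 h ratio turned, 1.8% of probes were called for 6 h against 3 h, 4.22% for 12 h against 6 h and 3.5% for 24 h against 6 h, and 3, 3 and 2 of the 7 genes passed unadjusted, beside 17.1%, 23.9% and 21.8% of probes. The 2 genes called then were Slc17a6 (0.67, 95% confidence interval 0.32 to 1.03, adjusted p 0.021) and Slc1a2 (0.81, 0.32 to 1.29, adjusted p 0.0402) for 12 h against 6 h. The arrays of 3 h lay on other slides than those of later times, so for steps from 3 h time and slide cannot be told apart.

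All 7 differences were below 0 for Mg 24 h against 12 h, with a median of -0.18 beside -0.03 over all genes, and all 7 were above 0 for 12 h against 3 h, with a median of 0.14 beside 0.05. Both use the same 12 h arrays. The largest of these single differences was -0.45 for Slc17a7 from 12 h to 24 h (95% confidence interval -1.24 to 0.34).

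For HI 12 h against 3 h, 0.0378% of probes were called and 17.7% passed unadjusted, with 0 of the 7 genes under either rule. For MgHI 12 h against 3 h the shares were 0% and 4.1%, again with 0 of 7. The largest MgHI step was that of Slc17a7, 0.36 (95% confidence interval -0.07 to 0.80).

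Whether injury and MgSO4 alone gave different ratios was tested between HI and Mg arrays of the same time. Of all probes 0.696% were called at 3 h and 0.0454% at 12 h, and 16.1% and 12.3% passed unadjusted. None of the 7 genes passed either rule at either time. At 3 h 6 of 7 differences were above 0, with a median of 0.18 beside -0.02 over all genes, and at 12 h 4 of 7, with a median of 0.05 beside -0.04.

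MgHI and HI arrays shared slides and were compared channel by channel, on the log2 signal less the 75th percentile of the array, so that the same dye stands on both sides. In Cy3 0.294% of probes were called at 3 h and 0% at 12 h, in Cy5 6.19% at 3 h and 0% at 12 h. The unadjusted shares were 13.2% in Cy3 at 3 h, 28.4% in Cy5 at 3 h, 13.2% in Cy3 at 12 h and 13.1% in Cy5 at 12 h. Of the 7 genes 0, 2, 0 and 1 passed unadjusted in this fit without a block, and none was called. With the replicate number as a block 168 probes were called in Cy3 at 3 h in place of 56, and still none of the 7 genes. In the blocked fit Slc1a2 at 3 h (adjusted p 0.0562) and Slc1a1 at 12 h (0.177) also passed unadjusted in Cy5.

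Slc1a2 was the 1 that passed at 12 h without a block. Its Cy5 levels were 0.05, -0.09 and -0.26 on HI arrays and -0.44, -0.48 and -0.84 on MgHI arrays. The difference was -0.48 (95% confidence interval -0.90 to -0.07, adjusted p 0.331), and with the replicate block the adjusted p was 0.131. In Cy3 the levels were -0.62, -0.97 and -0.79 on HI arrays and -0.48, -0.26 and -0.85 on MgHI arrays, with a difference of 0.26 (-0.20 to 0.72, adjusted p 0.534).

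At 3 h the Cy5 levels of Slc1a2 were 0.09, -0.08 and -0.33 on HI arrays and -0.26, -0.30 and -0.46 on MgHI arrays, a difference of -0.23 (-0.54 to 0.08, adjusted p 0.3). With the replicate block its adjusted p was 0.0562. In Cy3 the levels were -0.56, -0.44 and -0.63 against -0.29, -0.20 and -0.47, a difference of 0.22 (-0.08 to 0.52, adjusted p 0.495). At both times the Cy5 mean was thus lower and the Cy3 mean higher on MgHI than on HI arrays, without a call.

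Slc1a1 had Cy5 levels of 0.72, 1.11 and 0.96 on HI arrays and 0.37, 0.70 and 0.46 on MgHI arrays at 3 h. The difference was -0.42 (-0.75 to -0.09, adjusted p 0.105); with the replicate block its adjusted p was 0.0136, at a fold below the threshold. At 12 h the levels were 1.22, 0.70 and 0.81 against 0.52, 0.39 and 0.54. The difference was -0.42 (-0.85 to 0.01, adjusted p 0.384), with an adjusted p of 0.177 under the replicate block. The Cy3 difference at 3 h was -0.22, with an interval of -0.52 to 0.08, and that at 12 h was -0.12, with an interval of -0.45 to 0.22.

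Slc17a7 had Cy5 levels of -1.35, -1.47 and -1.36 on HI arrays and -1.65, -1.55 and -1.65 on MgHI arrays at 3 h, a difference of -0.23 (-0.43 to -0.03, adjusted p 0.137, and 0.0681 with the replicate block). At 12 h its difference in Cy5 was -0.15 (-0.75 to 0.44), and in Cy3 it was -0.30 (-0.72 to 0.12) at 3 h and -0.33 (-0.79 to 0.13) at 12 h. All 4 differences of Slc17a7 and all 4 of Slc1a1 were below 0, and the Cy5 intervals of both genes at 3 h lay wholly below 0.

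For the other 4 genes the 16 intervals, taken without a block, all included 0. In Cy3 at 3 h Slc17a6 was lower on the MgHI array of each replicate number, by differences of -0.22, -0.29 and -0.24. With the replicate block the adjusted p was 0.274 (unadjusted 0.0586). Differences of 1 sign were also found there for Slc1a3 (0.18, 0.19 and 0.11) and Glud1 (-0.15, -0.01 and -0.14). Glul and Glud1 had them in Cy5 at 3 h and in Cy3 at 12 h, and Slc1a3 and Glud1 in Cy5 at 12 h. The share of all probes with differences of 1 sign was not computed. Slc17a6 differed by -0.25 in Cy3 and -0.02 in Cy5 at 3 h and by -0.07 and 0.00 at 12 h. Slc1a3 differed by 0.16 and -0.03, then 0.32 and 0.10. Glul differed by 0.02 and -0.10, then -0.29 and -0.06. Glud1 differed by -0.10 and 0.09, then -0.04 and 0.10.

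**Figure D3:**
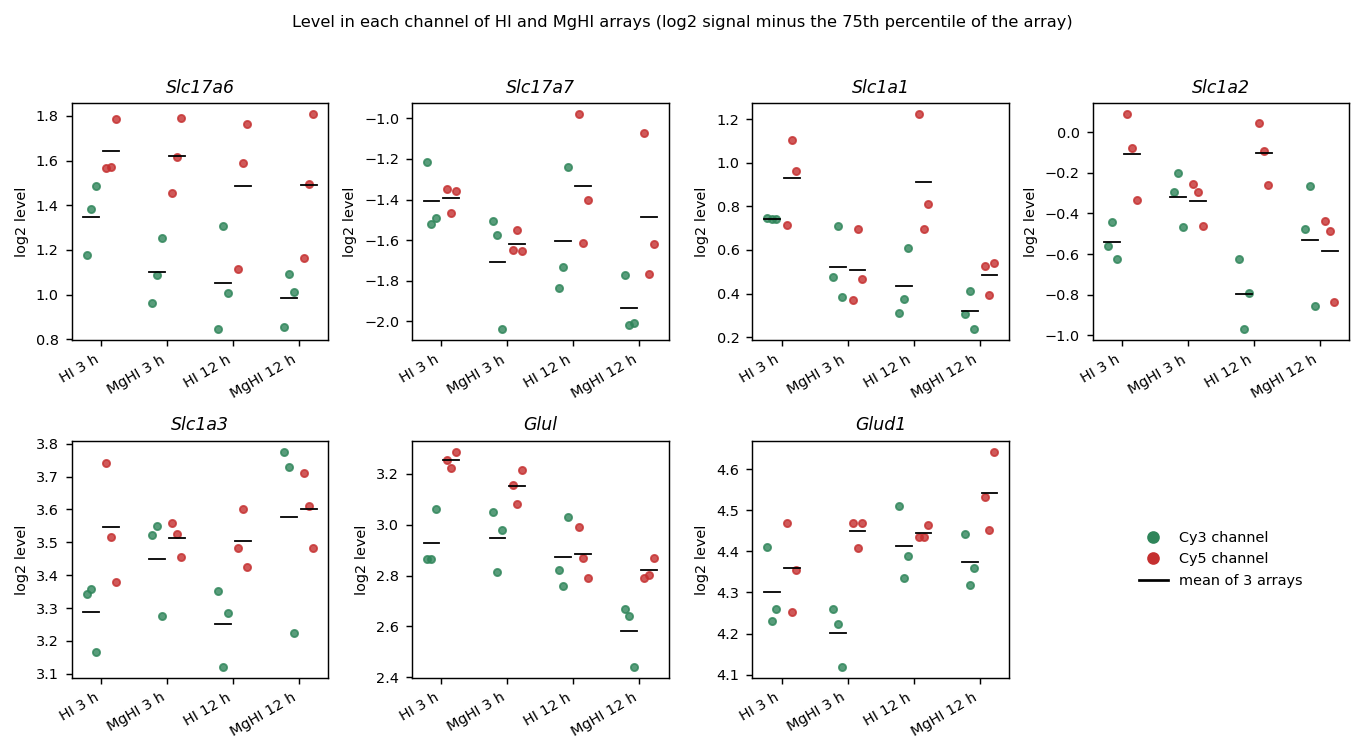
Log2 level, the log2 signal less the 75th percentile of the array, of each gene (panels) in the Cy3 (green) and Cy5 (red) channel of the 3 HI and 3 MgHI arrays at each time, with 1 point per array and the mean as a line; the vertical axes differ between panels. The Cy5 points of Slc1a2 at 12 h lie between -0.26 and 0.05 on HI arrays and between -0.84 and -0.44 on MgHI arrays.

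**Figure D4:**
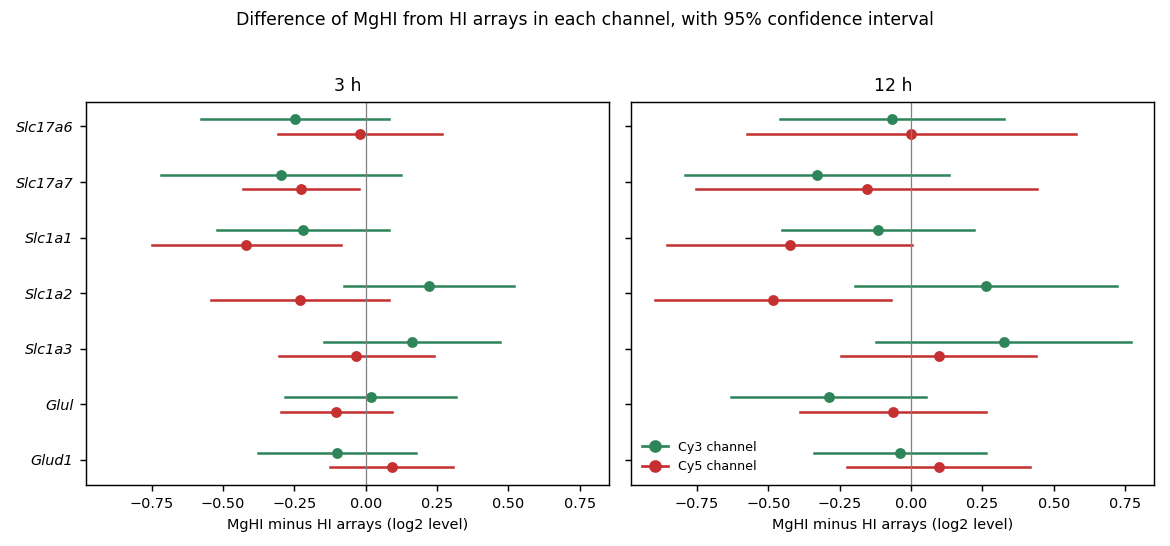
Difference in log2 level of MgHI from HI arrays for each gene in Cy3 (green) and Cy5 (red) at 3 h (left) and 12 h (right), with the 95% confidence interval as a bar. The Cy5 intervals of Slc1a1 and Slc17a7 at 3 h and of Slc1a2 at 12 h do not include 0, and none of the 7 genes was called.

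Levels were also set in order over the 8 groups within each channel and gene, as a description, since groups lay on different slides. Slc17a7 stood out at Mg 3 h, with -0.26 ± 0.17 in Cy3, the PBS channel, and -0.43 ± 0.17 in Cy5. The next groups were HI 3 h at -1.41 ± 0.17 in Cy3 and HI 12 h at -1.33 ± 0.32 in Cy5, a gap larger than both SDs in either channel. No other neighbours in the order of Slc17a7 were apart by more than both SDs, down to MgHI 12 h at -1.93 ± 0.14 in Cy3 and Mg 6 h at -2.24 ± 0.91 in Cy5. The summed level of 8 excitatory neuron markers in Cy3 was 5.07 to 5.28 at Mg 3 h and at most 4.84, at Mg 6 h, elsewhere. In Cy5 it was 4.99 to 5.35 at Mg 3 h, and HI 12 h reached 5.11. For 7 general neuronal markers in Cy3 it was 7.21 to 8.08 at Mg 3 h, and Mg 12 h reached 7.98. The part of these markers in the order of Slc17a7 was not tested.

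For Slc1a3 the order in Cy3 ran from Mg 3 h at 3.62 ± 0.18 through MgHI 12 h, MgHI 3 h, HI 3 h, HI 12 h at 3.25 ± 0.12 and Mg 6 h at 2.77 ± 0.31 to Mg 24 h and Mg 12 h at 2.55 ± 0.24. The steps between MgHI 3 h and HI 3 h and between HI 12 h and Mg 6 h were larger than both SDs. In Cy5 only the step from HI 12 h at 3.50 ± 0.09 to Mg 6 h at 2.85 ± 0.27 was. The 3 lowest groups in both channels were those on slides 1 to 4. On those arrays the summed level of 4 blood markers in Cy3 was 7.54 to 8.87 at Mg 6 h, 8.25 to 8.78 at Mg 12 h and 7.95 to 8.75 at Mg 24 h, against 6.65 to 7.43 over the other 5 groups. That of 8 microglia markers was 4.25 to 5.6, 5.19 to 5.6 and 5.18 to 5.83, against 4.21 to 4.64. Their part in the order of levels was not tested.

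Slc17a6 showed the same 3 groups lowest, from Mg 24 h at 0.28 ± 0.22 to Mg 12 h at 0.17 ± 0.09 in Cy3, below Mg 3 h at 0.79 ± 0.20 by more than both SDs. HI 3 h was highest in Cy3 at 1.35 ± 0.16, above MgHI 3 h at 1.1 ± 0.15 by more than both SDs, and highest in Cy5 at 1.64 ± 0.12. In Cy5 the step from Mg 3 h at 1.15 ± 0.37 to Mg 24 h at 0.60 ± 0.29 was the only one larger than both SDs. The summed level of 4 thalamus markers in Cy3 was -1.62 to -1.03 at Mg 3 h and -1.39 to -0.75 at Mg 6 h. At Mg 12 h and 24 h it was -1.52 to -0.89 and -1.17 to -0.67. On HI arrays it was 0.02 to 0.33 at 3 h and -0.19 to 0.41 at 12 h. On MgHI arrays it was 0.07 to 0.43 and -0.11 to 0.03. In the order of Mg times, 3, 1, 1 and 2 of them were well above background on every array, against all in the other groups. Their part in the order of Slc17a6 was not tested.

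Slc1a2 was highest in Cy3 in MgHI 3 h at -0.32 ± 0.13 and lowest in Mg 12 h at -1.60 ± 0.25, and only the step from HI 3 h at -0.54 ± 0.09 to HI 12 h at -0.79 ± 0.17 was larger than both SDs. In Cy5 HI 12 h at -0.10 ± 0.15 and HI 3 h at -0.11 ± 0.21 did not differ beyond their spread and stood above MgHI 3 h at -0.34 ± 0.11 and MgHI 12 h at -0.59 ± 0.22 by steps larger than both SDs. Mg 12 h was lowest at -1.17 ± 0.08.

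Glul in Cy5 was highest in HI 3 h at 3.25 ± 0.03, followed by MgHI 3 h at 3.15 ± 0.07 and HI 12 h at 2.88 ± 0.10, each step larger than both SDs, as was that from MgHI 12 h at 2.82 ± 0.04 to Mg 24 h at 2.36 ± 0.33. In Cy3 no step was, from MgHI 3 h at 2.95 ± 0.12 to Mg 12 h at 2.06 ± 0.25. For Slc1a1 no step was in either channel; its levels ran from 1.00 ± 0.38 in Mg 3 h to 0.18 ± 0.20 in Mg 12 h in Cy3 and from 1.02 ± 0.44 in Mg 3 h to 0.40 ± 0.68 in Mg 24 h in Cy5. Glud1 spanned the least, from 4.73 ± 0.18 in Mg 6 h to 4.2 ± 0.07 in MgHI 3 h in Cy3 and from 4.69 ± 0.08 in Mg 12 h to 4.36 ± 0.11 in HI 3 h in Cy5, with 1 step larger than both SDs in each channel.

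Across the 31 arrays the 7 genes were alike to very different degrees. After Slc17a7 with Slc1a1, the closest were Slc17a7 with Glud1 (Pearson 0.66, Spearman 0.64) and Glul with Glud1 (0.64 and 0.57), and the least alike were Slc1a2 and Glud1 (0.09 and 0.12). Slc1a2 was closest to Slc1a1 (0.55 and 0.62) and to Slc1a3 (0.54 and 0.50). These are descriptions over arrays that share slides, and with the Mg 6 h and MgHI ratios turned the Pearson values were 0.61 for Slc17a7 with Glud1, 0.63 for Glul with Glud1, 0.18 for Slc1a2 with Glud1, 0.53 for Slc1a2 with Slc1a1 and 0.69 for Slc1a2 with Slc1a3.

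Among 11665 genes well above background throughout, the ratios most like those of Slc17a7 over the 31 arrays were those of Hs3st2 and Gtpbp1 (Pearson 0.95 each) and Grina (0.94). Those most like Slc1a1 were Pfkm, Ncdn and Gprin1 (0.96 each), and those most like Slc1a2 were Ptprb (0.87), Gabbr2 (0.85) and Slc35a2 (0.83). For Slc17a6 they were C1ql1, AW551984 and Tex2 (0.77 each), and for Slc1a3 Gnl2 (0.71), Uck2 (0.70) and Myd88 (0.68). For Glul they were Ppp3ca (0.73), Irf2bp2 (0.70) and Bicd1 (0.69), and for Glud1 Elavl1 (0.76), Spon1 (0.75) and Tiam1 (0.75). With the Mg 6 h and MgHI ratios turned, Hs3st2 was still the closest to Slc17a7 (0.94) and Gprin1 the closest to Slc1a1 (0.96), whereas C1ql1 had 0.40 with Slc17a6, Slc35a2 had 0.48 with Slc1a2 and Myd88 had 0.32 with Slc1a3.

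A wider list of 30 genes of glutamate and glutamine handling was read beside the 7. It holds 14 other transporters, 14 other enzymes and 2 proteins that bind glutamate transporters, and all 30 were tested in every comparison. Calls were made at HI 3 h, where 1 was higher and 1 lower, and at MgHI 3 h, where 1 was higher in Cy5, beside 3.8% and 7.61% of all probes. The median of the 30 was -0.01 at Mg 3 h, -0.09 at Mg 6 h, 0.10 at Mg 12 h, -0.00 at Mg 24 h, 0.03 at HI 3 h, 0.08 at HI 12 h, 0.13 at MgHI 3 h and 0.14 at MgHI 12 h. Turned, these medians are 0.09 at Mg 6 h and -0.13 and -0.14 in the MgHI groups.

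The gene called higher at HI 3 h was Slc1a4, a relative of the glutamate transporters that carries alanine, serine and cysteine. Its ratios were 0.73, 0.85 and 0.82, with a mean of 0.80 ± 0.06 (n = 3, adjusted p 0.0124). On the MgHI arrays at 3 h they were 0.62, 0.76 and 0.77, with a mean of 0.72 ± 0.08 (n = 3, adjusted p 0.0141), or -0.72 with the sign turned. Yet after MgSO4 alone at 3 h they were 0.57, 0.87, 0.68 and 0.68, and by channel Slc1a4 lay above 0 on 31 of 31 arrays, between 0.20 and 1.04 (18 of 31 with the Mg 6 h and MgHI arrays turned). The HI ratio exceeded the Mg ratio by 0.10 at 3 h (adjusted p 0.687), and dye and treatment cannot be told apart in the ratio itself.

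The gene called lower at HI 3 h was Slc38a5, a transporter of glutamine and other neutral amino acids. Its ratios were -0.61, -0.75 and -0.54, with a mean of -0.63 ± 0.11 (n = 3, adjusted p 0.0175). At Mg 3 h they were -0.07, -0.31, 0.07 and 0.17, and the difference was -0.60 (adjusted p 0.0945). At HI 12 h they were -0.25, -0.42 and -0.64 (mean -0.43 ± 0.20, n = 3, adjusted p 0.123), and on MgHI arrays they were -0.13, -0.53 and 0.18 at 3 h and -0.35, 0.10 and 0.31 at 12 h. Its Cy3 level was 2.06, 2.06 and 1.92 on HI arrays and 1.37, 1.57 and 0.98 on MgHI arrays at 3 h, a difference of -0.71 (adjusted p 0.158), and the difference at 12 h was -0.73 (adjusted p 0.351).

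In the groups without a call the 3 genes of the list farthest from 0 were as follows. At Mg 3 h they were Slc1a4 (0.70), Slc1a5 (0.37) and Slc7a11 (-0.30), and at Mg 6 h Ajuba (-0.82), Got2 (-0.40) and Slc1a4 (0.40). At Mg 12 h they were Slc7a11 (0.71), Slc1a4 (0.66) and Slc32a1 (0.59), and at Mg 24 h Slc1a4 (0.59), Slc1a7 (0.43) and Slc32a1 (0.33). At HI 12 h they were Slc1a4 (0.87), Slc7a11 (0.82) and Gad2 (0.57), and at MgHI 12 h Slc7a11 (0.96), Slc1a4 (0.77) and Aldh18a1 (0.48). Turned, the Mg 6 h values are 0.82, 0.40 and -0.40 and those of MgHI 12 h -0.96, -0.77 and -0.48. Slc7a11 is the exchanger that exports glutamate for cystine, Got2 the mitochondrial aspartate aminotransferase, Slc32a1 the vesicular transporter of GABA, Gad2 an enzyme that makes GABA from glutamate, and Ajuba a scaffold protein reported to bind GLT1.

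For the differences between Mg times the 3 largest were Ajuba (-0.58), Slc38a2 (-0.36) and Slc1a7 (0.34) for 6 h against 3 h, and Slc7a11 (1.01), Slc1a5 (-0.58) and Slc38a1 (0.52) for 12 h against 3 h. They were Slc1a5 (-0.59), Slc1a7 (0.40) and Ajuba (0.31) for 24 h against 3 h, and Slc7a11 (0.97), Slc38a1 (0.61) and Got2 (0.60) for 12 h against 6 h. For 24 h against 6 h they were Ajuba (0.89), Prodh (-0.45) and Aldh18a1 (0.40), and for 24 h against 12 h Slc7a11 (-0.86), Slc38a1 (-0.56) and Ajuba (0.46). With the 6 h ratio turned they were 1.06, 0.38 and -0.40 for 6 h against 3 h, 0.45, 0.37 and -0.21 for 12 h against 6 h and -0.75, -0.06 and -0.35 for 24 h against 6 h. None of these was called either way.

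For HI 12 h against 3 h the 3 largest were Slc7a11 (0.65), Slc38a2 (0.45) and Gad2 (0.36). For MgHI 12 h against 3 h Arl6ip5 (-0.61) and Gpt (-0.28) were the farthest from 0. For HI against Mg they were Slc38a5 (-0.60), Slc3a2 (0.54) and Slc1a5 (-0.52) at 3 h and Slc3a2 (0.52), Slc38a5 (-0.45) and Got1 (-0.40) at 12 h. The 3 h value of Slc3a2, the heavy chain that partners Slc7a11, had an adjusted p of 0.0499 but did not reach the fold of 1.5.

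For MgHI against HI arrays the 3 largest in Cy3 were Slc38a5 (-0.71), Ajuba (-0.40) and Slc25a18 (-0.37) at 3 h and Slc38a5 (-0.73), Slc7a11 (0.69) and Slc25a22 (0.60) at 12 h. In Cy5 they were Prodh (-0.45), Gpt2 (0.36) and Slc7a11 (0.33) at 3 h and Slc7a11 (0.81), Slc25a22 (0.75) and Slc3a2 (-0.50) at 12 h. None was called. Slc7a11 was thus higher on MgHI than on HI arrays in both channels at 12 h, by values whose adjusted p were 0.371 in Cy3 and 0.27 in Cy5.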

How the data were processed

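Total RNA of pooled mouse forebrain hemispheres was co-hybridized on 31 two-colour Agilent arrays. The authors deposited the scanner output of Agilent Feature Extraction (version 10.5.1.1, per the submitters' processing notes): processed signal intensity per spot and channel, already background-subtracted and dye-normalized (linear and LOWESS) within the array, which can pull large shifts of many probes towards 0. They also deposited a table of log10 ratios of the same spots, which served as an alternative; 0 of its columns were without a sample. Median intensity of spot and local background, per the file headers, was used for a second alternative.

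Ratios were computed as log2 of Cy5 over Cy3 processed intensity, flagged spots left out and spots of 1 probe averaged. Accessions were matched to symbols with RefSeq; 27427 of 39429 probes had 1 symbol, none had several and 12002 had none, and those tested had 1 symbol that was not a RIKEN clone name, which left out 1082 probes; an alternative kept them. Testing required that 66.7% or more of the arrays of a group showed the probe well above background in Cy3 or Cy5. Each group was fitted separately with limma (version 3.58.1, R 4.3.3; lmFit and eBayes) against 0, and 14 differences between groups or channels as contrasts, with Benjamini-Hochberg adjustment over all probes tested. Calls needed an adjusted p under 0.05 and a fold of at least 1.5; intervals are 95%. Channel levels are log2 processed intensity less the 75th percentile of the array. Scripts were tested on simulated data.

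The genes and lists were chosen with earlier results of these data known. Named genes were the 7, the called genes of the wider list or else its 3 largest means, and the 3 most similar genes; some named by this rule or as markers are not reported here. Whether replicate numbers pair samples was checked by the correlation of same-numbered deviations: every pair exceeded 0.1 for MgHI against HI at 3 h in Cy3 (0.18 to 0.38) and Cy5 (0.23 to 0.52) and at 12 h in Cy5 (0.27 to 0.44), where numbers coincide with slides; elsewhere they did not. The labels call replicates biological. The number of arrays limits the precision. Alternatives were background correction, centring, filters, spots, probes, tests, blocks, direction and left-out arrays. A planned subset of the 6 h arrays selected by its values was not run.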

Additional observations from a re-analysis of the deposited data

Results flagged for a closer look

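In groups of 4 to 10 arrays, 3 of 28 sets of values of the 7 genes held 1 array that stood apart from its group, where chance gives about 1 in 20. Slc1a1 at Mg 24 h had -0.51 on replicate 1, with the nearest other array at 0.18. Slc1a2 at Mg 3 h had -0.22 on replicate 1, with the nearest at 0.21. Slc1a2 at Mg 12 h had 0.91 on replicate 3, the array on slide 4, with the nearest at 0.32. Their causes were not tested.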

How the results depend on the processing

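Of 1953 values of the 7 genes under an alternative, 153 had the other sign, none of them called, 27 moved by more than 1 SD and 6 became called: Slc17a6 and Slc1a2 for Mg 12 h against 6 h with the 6 h ratio turned, Slc17a7 at Mg 6 h without slide 4, Slc1a1 and Slc1a2 at HI 12 h without replicate 3, and Slc1a2 at HI 12 h by the methods' t-test at its unadjusted p. Of the 7 genes, 0 to 2 were called at HI 12 h when 1 array was left out, 1 at Mg 6 h without slide 4, 1 at HI 12 h by the unadjusted t-test and 2 for Mg 12 h against 6 h with the 6 h ratio turned. Group means with the sign turned, at Mg 6 h and in the MgHI groups, are not among the 1953 values. With RIKEN clone names kept, 0 of the 7 were called in any comparison. The alternatives without slide 4 and with the 6 h ratio turned were chosen after seeing the data. So was the slide block over 6, 12 and 24 h given below.

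The counts of probes called over the whole array depended on the processing. With median signals, no background subtraction and loess they were 20 at Mg 6 h, 18 at Mg 12 h, 0 at Mg 24 h, 240 at HI 3 h, 0 at HI 12 h and 500 at MgHI 3 h. With no filter on dim probes they were 2 at Mg 6 h, 0 at Mg 24 h, 33 at HI 3 h, 0 at HI 12 h and 749 at MgHI 3 h, and with both channels well above background on every array 0 at Mg 6 h, 0 at Mg 24 h and 141 at HI 12 h. The methods' t-test after Benjamini-Hochberg gave 0 at Mg 24 h, HI 3 h, HI 12 h and MgHI 3 h, and at its unadjusted p 113 at Mg 3 h, 193 at Mg 6 h, 215 at Mg 12 h, 74 at Mg 24 h, 935 at HI 12 h and 546 at MgHI 12 h. Slide as a random block, which could be fitted only for Mg 3 h and Mg 6 h, gave 0 at Mg 6 h. Without slide 4 they were 1534 at Mg 6 h, 3 at Mg 24 h, 1 for Mg 6 h against 3 h and 1780 for Mg 12 h against 6 h, and with slide as a block over 6, 12 and 24 h 0 for the last. With the replicate block they were 0 for Mg 12 h against 6 h, 0 for HI 12 h against 3 h, 23 for HI against Mg at 3 h, 0 for HI against Mg at 12 h and 168 for MgHI against HI at 3 h in Cy3, where slide as a block gave 171; the block changed no call of the 7 genes. Quantile normalization gave 2 for MgHI against HI at 12 h in Cy3. With the 6 h ratio turned they were 311 for Mg 6 h against 3 h, 733 for 12 h against 6 h and 606 for 24 h against 6 h. The cause of these shifts was not tested.

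Leaving out 1 array at a time gave 0 to 14 at Mg 6 h, 0 to 3 at Mg 24 h, 287 to 723 at HI 3 h, 18 to 3335 at HI 12 h, 1130 to 2214 at MgHI 3 h and 0 to 815 at MgHI 12 h. For the differences it gave 0 to 1 for Mg 12 h against 6 h, 0 to 611 for HI 12 h against 3 h, 28 to 187 for HI against Mg at 3 h and 2 to 17 at 12 h. For MgHI against HI it gave 25 to 118 in Cy3 and 625 to 1019 in Cy5 at 3 h, and 0 to 5 and 0 to 18 at 12 h. The highest counts came without replicate 7 at Mg 6 h, without replicate 3 at HI 12 h, for HI 12 h against 3 h and at MgHI 12 h, and without replicate 1 at MgHI 3 h; the lowest at HI 3 h came without replicate 1. A group of 2 arrays is assumed to vary as the moderated fit says. With 3 or 4 arrays in most groups, the intervals given bound what could be detected. The brightest probes of the 7 genes were well above background on every array. Slc17a7 was dim at Mg 6 h, however, down to a signal of 20.8 in Cy5 on replicate 5, and the part of dim signal was not tested. A subset of the 6 h arrays selected by their values was not run.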
